A study of Mus musculus with 12 samples.

Results

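The genes described here are the receptors, transcription factors and feedback inhibitor of the Hedgehog pathway, followed in dermal papilla (DP) cells sorted from the skin of control and dMF1/2 mice. They were chosen by name, and all 9 of 9 (Ptch1, Hhip, Gas1, Boc, Cdon, Smo, Gli1, Gli2 and Gli3) were found in both tables analysed, among 14986 genes that the tables share. RNA was measured in 12 libraries of anagen skin, 3 from control and 3 from dMF1/2 mice at postnatal day 14 (P14) and as many at day 16 (P16). The dMF1/2 mice are Cor-cre/+ with both copies of Fgfr1 and both copies of Fgfr2 floxed, and Cor-cre acts in the DP of the skin. The labels call the control mice wild type. The study's methods list as controls of this cross either Cor-cre/+ mice with 1 floxed and 1 intact copy of each receptor gene, or mice with no Cre and both genes floxed. All sorted cells carried a YFP reporter that depends on Cre, so that control cells of the Cor-cre/+ genotype would already lack 1 copy of Fgfr1 and of Fgfr2. The deletion takes place in cells with Cre, while the other cells of these mice keep both receptors.

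Hedgehog ligands are secreted proteins. In the hair follicle, Sonic hedgehog is made by matrix keratinocytes beside the DP, and DP cells receive it. In the absence of ligand, the receptor Ptch1 keeps the membrane protein Smo inactive, and Gli3 and Gli2 are cut into repressors, a step that needs the primary cilium. When a ligand binds Ptch1 together with the co-receptors Gas1, Boc or Cdon, Smo becomes active and full-length Gli proteins turn on target genes. Ptch1, Hhip and Gli1 are themselves known targets that rise with signaling in many tissues, and Gas1, Boc and Cdon are known to fall with it in the embryo.

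Depth lay between 19302358 and 29860750 reads per library, summed over the protein-coding genes listed. Fgfr1, targeted in the mutant, was lower in every dMF1/2 library than in every control library of its day, with log2 fold changes of -0.40 at P14 and -0.50 at P16 (limma, adjusted p = 0.501 and 0.130). Fgfr2 did not separate the groups, at -0.11 and -0.01 (limma, adjusted p = 0.974 and 0.978). These values count reads of the whole gene, and loss of an exon removes only part of them. The 15 DP markers, such as Corin and Alpl, summed to between 58977 and 194638 normalized reads per library. The 10 dermal fibroblast markers summed to between 139877 and 289006, with a median above that of the DP markers in every group. Of 16 hair follicle keratinocyte markers, 12 were listed and summed to between 411 and 1061, and 7 melanocyte markers summed to between 541 and 983. P16 control replicate 1 stood apart from the other control libraries of that day, with the lowest DP marker sum (58977, against 97395 and 107664). Among the P14 libraries, replicate 1 of each genotype had the lowest sum of dermal sheath markers, at 20668 in control and 23416 in dMF1/2, where the others lay between 42417 and 61447. The same libraries were lowest in dermal fibroblast markers (154990 and 139877) and skeletal muscle markers (959 and 1322). Both also had the highest DP marker sums of that day, at 194638 and 194502, against 113666 to 154074 in the others, and the highest Ptch1, Hhip and Gli1 of their genotype on that day.

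At P16, the receptor Ptch1 was 2.60-fold higher and the co-receptor Gas1 2.34-fold lower in the DP of dMF1/2 mice than in control DP. These were the 2 of 9 members called at an adjusted p under 0.05 (limma), 1 higher and 1 lower. The share of all 13457 genes tested that was called at P16 was 4.32%, with 2.18% higher and 2.14% lower. Gli1, at 2.06-fold higher, and Boc, at 1.46-fold lower, fell just short of the threshold. The libraries of the 2 genotypes did not overlap in 8 of 9 members at P16, with dMF1/2 above control in 6 and below it in 2, and the same was true of 24.5% of all genes tested (12.9% above and 11.6% below). Control and dMF1/2 libraries with the same number deviated together within each day, and with the replicate number as a block 5 of 9 members were called at P16 (Ptch1, Gli1 and Hhip higher, Gas1 and Boc lower), against 10.4% of all genes. DESeq2 on the recovered reads called 4 of 9 (Ptch1, Gli1, Gas1 and Boc), against 8.51% of all genes, and edgeR called Ptch1, Gli1 and Gas1, against 4.48%. At P14, limma called 0 of 9 members, where 0.0525% of all 13334 genes were called. At an unadjusted p under 0.05 there were 3 of 9 at P14 (Ptch1, Gli1 and Gas1), against 7.32% of all genes, while DESeq2 called Gas1 (1.55% of all genes), edgeR called 0, and the fit with the replicate block called Gli1 (1.68%). Libraries of the genotypes did not overlap at P14 in 3 of 9 (Ptch1 above, and Gas1 and Boc below), against 12.7% of all genes.

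**Figure D1:**
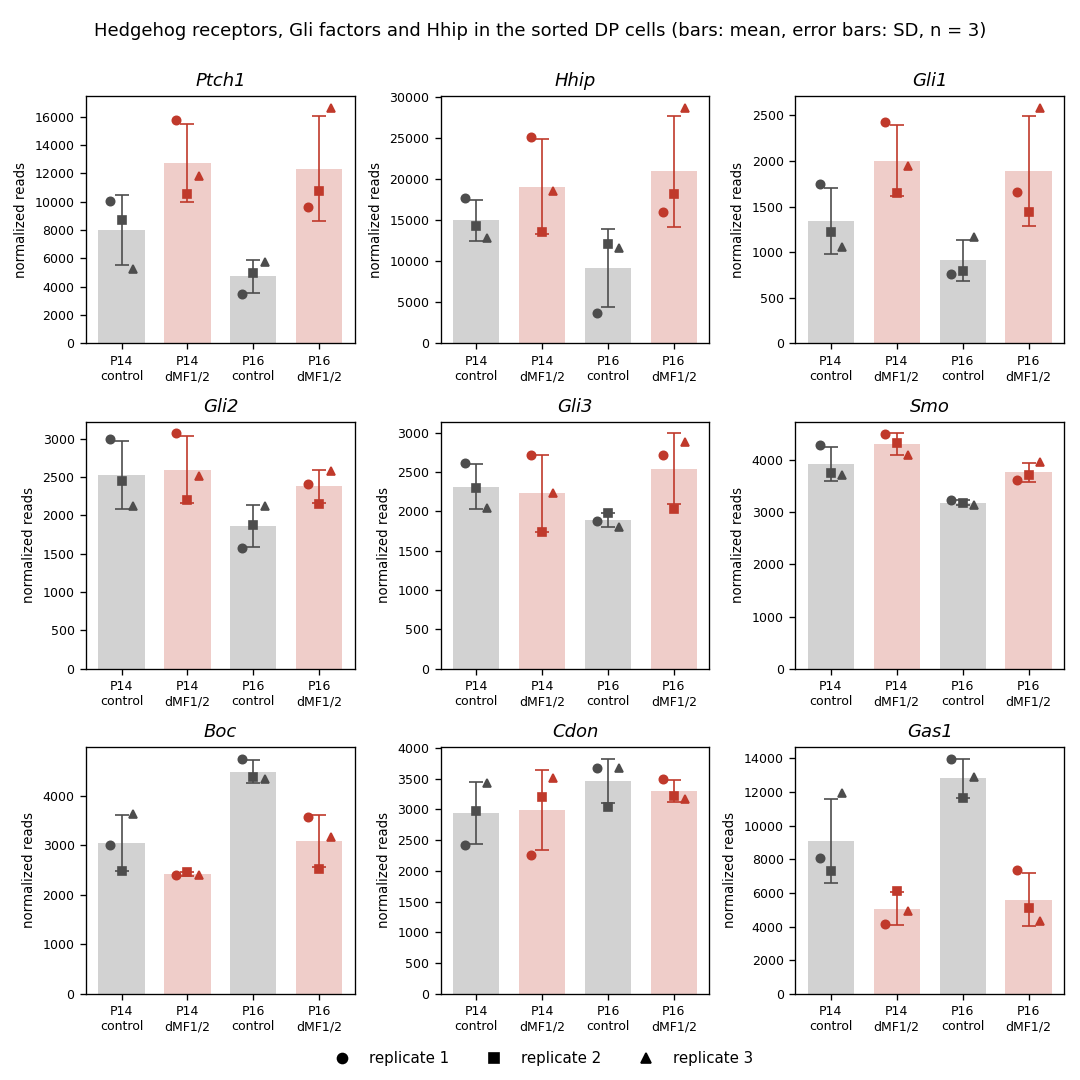
Normalized reads of the 9 members in each library on a scale common to the 12 libraries, with bars for group means and error bars for the SD (n = 3) and a symbol for each replicate number. Ptch1 lay at 9651 or above in the dMF1/2 libraries of P16 and at 5768 or below in the controls of that day, and Gas1 lay in the opposite order.

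Ptch1 (ENSMUSG00000021466, chr13:63508328-63573598, minus strand of GRCm38) encodes the receptor that holds Smo inactive until ligand binds. At P16 its normalized reads in the deposited scaling of that day were 3483, 5027 and 5802 in control replicates 1, 2 and 3, and 9805, 10877 and 16809 in dMF1/2 replicates 1, 2 and 3. Every dMF1/2 library lay above every control library. The means were 4770 ± 1181 in control and 12497 ± 3773 in dMF1/2 libraries (SD, n = 3), a log2 fold change of 1.38 with a standard error of 0.24 (limma, adjusted p = 0.0208). Within the pairs of equal number, the log2 differences were 1.49, 1.11 and 1.53. The call was lost without dMF1/2 replicate 2 (log2 fold change 1.46, limma's adjusted p = 0.0506) and without dMF1/2 replicate 3 (1.15, adjusted p = 0.0604). At P14 the control libraries had 9880, 8540 and 5178 normalized reads and the dMF1/2 libraries 15460, 10386 and 11656. These groups did not overlap either, and the log2 fold change of 0.70 (standard error 0.26) had an adjusted p of 0.608 in limma. Without P14 control replicate 3 the change was 0.42.

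Hhip (ENSMUSG00000064325, chr8:79966115-80058006, minus strand) encodes a membrane protein that binds Hedgehog ligands and withholds them from Ptch1. At P16 the control libraries had 3708, 12270 and 11634 normalized reads and the dMF1/2 libraries 16189, 18372 and 28968. All dMF1/2 values were above all control values, and control replicate 1 lay far under the other controls. The log2 fold change was 1.34 with a standard error of 0.44 (limma, adjusted p = 0.143), and the adjusted p was 0.0228 with the replicate block. Without control replicate 1, the library with the lowest DP marker sum, the change was 0.78 (limma, adjusted p = 0.143). At P14, values of 17364, 14025 and 12621 in control overlapped with 24549, 13388 and 18210 in dMF1/2 libraries (log2 fold change 0.32, limma's adjusted p = 0.900), and the log2 fold change was 0.10 without dMF1/2 replicate 1. Of its exon bases, 175 are shared with Gm27820 on the opposite strand.

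Gas1 (ENSMUSG00000052957, chr13:60174405-60177365, minus strand) encodes a lipid-anchored surface protein that binds ligand together with Ptch1. It had the highest reads per kb of exon among the members in control mice. At P16 the control libraries had 14053, 11752 and 12985 normalized reads and the dMF1/2 libraries 7461, 5174 and 4356. Each dMF1/2 library lay below each control library. The means were 12930 ± 1151 and 5664 ± 1610 (SD, n = 3), a log2 fold change of -1.22 with a standard error of 0.19 (limma, adjusted p = 0.0129), and differences within pairs were -0.91, -1.18 and -1.58. The call was lost without control replicate 3 (log2 fold change -1.22, limma's adjusted p = 0.0566). At P14 the libraries also did not overlap, with 7907, 7158 and 11731 normalized reads in control and 4037, 5991 and 4859 in dMF1/2 mice. There the log2 fold change was -0.83 with a standard error of 0.22 (limma, adjusted p = 0.369), and DESeq2 gave an adjusted p of 0.0261. Of the 2961 exon bases of Gas1, 589 are shared with the noncoding gene Gm48488 on the opposite strand. The library kit kept strand, but whether the counting used it is not given in the sources used here.

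The other co-receptors share a structure of immunoglobulin and fibronectin domains and differed in their values. Boc (ENSMUSG00000022687, chr16:44485045-44558897, minus strand) had 4796, 4422 and 4371 normalized reads in the P16 control libraries and 3627, 2555 and 3209 in the dMF1/2 libraries. These groups did not overlap, and the log2 fold change of -0.55 (standard error 0.13) had an adjusted p of 0.0568 in limma and 0.0141 with the replicate block. It was called without dMF1/2 replicate 1 (limma, adjusted p = 0.0446). At P14 the dMF1/2 libraries lay close together at 2353, 2426 and 2363, just below the controls at 2953, 2442 and 3565 (log2 fold change -0.31, limma's adjusted p = 0.710), with a change of -0.17 without control replicate 3. Cdon (ENSMUSG00000038119, chr9:35421128-35507652, plus strand) was the member whose genotypes overlapped on both days. It ranged from 3070 to 3702 in control and from 3207 to 3555 in dMF1/2 libraries at P16. There the log2 fold change was -0.06, with a 95% interval from -0.29 to 0.17. At P14 its log2 fold change was 0.02, with an interval from -0.44 to 0.48.

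Smo (ENSMUSG00000001761, chr6:29735503-29761365, plus strand) encodes the membrane protein that passes the signal inward, and it differed little between genotypes. At P16 it had 3265, 3212 and 3164 normalized reads in control and 3682, 3749 and 4012 in dMF1/2 libraries. The dMF1/2 values lay above a narrow control range, with a log2 fold change of 0.25 and a standard error of 0.08 (limma, adjusted p = 0.117). At P14 the change was 0.14 and the groups overlapped (limma, adjusted p = 0.878).

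Among the Gli transcription factors, Gli1 differed most between the genotypes. Gli1 (ENSMUSG00000025407, chr10:127329889-127341589, minus strand) acts as an activator and is a target of the pathway. At P16 the control libraries had 770, 806 and 1178 normalized reads and the dMF1/2 libraries 1683, 1450 and 2610. The groups did not overlap, and all 3 pairs differed by a similar amount, with log2 differences of 1.13, 0.85 and 1.15. The log2 fold change was 1.04 with a standard error of 0.24, and its adjusted p was 0.0509 in limma and 0.00126 with the replicate block. At P14 the values of 1711, 1201 and 1037 in control overlapped with 2374, 1624 and 1908 in dMF1/2 mice. Each pair was higher in the mutant there (log2 differences 0.47, 0.44 and 0.88), and the log2 fold change of 0.60 had an adjusted p of 0.576 in limma and 0.0401 with the block. Of the 4995 exon bases of Gli1, 265 are shared with Gm47200 and 62 with Arhgap9 on the opposite strand.

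Gli2 and Gli3 relay the signal from Smo, Gli2 mainly as an activator and Gli3 mainly as a repressor in most tissues. Gli2 (ENSMUSG00000048402, chr1:118834132-119053619, minus strand) had 1583, 1893 and 2133 normalized reads in P16 control and 2442, 2168 and 2612 in P16 dMF1/2 libraries. Gli3 (ENSMUSG00000021318, chr13:15463235-15730026, plus strand) had 1895, 2007 and 1812 in P16 control and 2759, 2053 and 2918 in P16 dMF1/2 libraries. For both genes the lowest dMF1/2 library was just above the highest control. Their log2 fold changes of 0.37 (standard error 0.12) and 0.42 (standard error 0.13) did not pass the threshold (limma, adjusted p = 0.150 and 0.130). Gli3 was called without P16 dMF1/2 replicate 2, with a log2 fold change of 0.58 (limma, adjusted p = 0.0313). At P14 both genes overlapped between genotypes, with log2 fold changes of 0.04 for Gli2 and -0.07 for Gli3 (limma, adjusted p = 0.999 and 0.996).

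**Figure D2:**
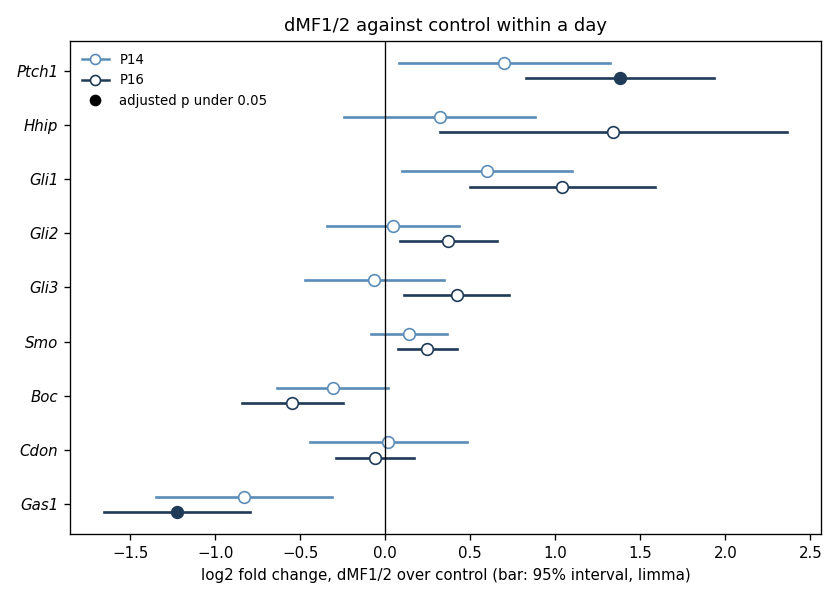
The log2 fold change of dMF1/2 over control for each member at P14 and P16, with 95% intervals from limma and filled points for an adjusted p under 0.05. Ptch1 (1.38) and Gas1 (-1.22) at P16 are the filled points, on opposite sides of 0.

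The sequences before the starts of Ptch1 and Gas1, which were called in opposite directions, and of Hhip are given for their composition. Starts are those of RefSeq on GRCm38.p6, and the 250 bases before each are shown 5′ to 3′ on the strand of the gene, chr13:63565736-63565985, chr13:60177536-60177785 and chr8:80058009-80058258. Capitals mark CCACCC or its reverse complement GGGTGG, the core of the known Gli binding sequence GACCACCCA.
Ptch1: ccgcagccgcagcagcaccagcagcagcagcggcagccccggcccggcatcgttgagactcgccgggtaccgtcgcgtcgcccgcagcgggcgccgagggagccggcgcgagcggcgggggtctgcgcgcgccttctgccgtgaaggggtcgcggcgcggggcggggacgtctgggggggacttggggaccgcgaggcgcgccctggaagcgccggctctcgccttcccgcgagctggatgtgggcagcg
Gas1: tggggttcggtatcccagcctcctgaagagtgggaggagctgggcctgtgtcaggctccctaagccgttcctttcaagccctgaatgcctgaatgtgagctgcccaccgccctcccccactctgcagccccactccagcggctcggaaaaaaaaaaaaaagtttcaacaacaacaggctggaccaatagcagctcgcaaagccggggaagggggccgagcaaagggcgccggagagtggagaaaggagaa
Hhip: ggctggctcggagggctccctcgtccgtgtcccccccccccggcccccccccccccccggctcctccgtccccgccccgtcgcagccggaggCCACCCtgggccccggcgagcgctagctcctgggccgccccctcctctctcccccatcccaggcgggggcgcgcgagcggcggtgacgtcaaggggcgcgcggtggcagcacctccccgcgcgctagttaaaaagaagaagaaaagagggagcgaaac
Windows from 250 bases before to 50 after the start were available for 7 of the 9 members, all but Gli1 and Boc. The table holds 1 start a gene, and those of Ptch1, Cdon and Gli3 lie 7863, 30948 and 488 bases inside the gene spans used above, so that windows at other starts of these genes were not searched. The whole sequence GACCACCCA, searched on both strands, was found in 0 of these 7 and in 0.253% of 32851 mouse windows of this kind. The core, which lies inside it, was found in 4 of 7 (Gli2, Gli3, Hhip and Smo) and in 31.5% of all windows. The Ptch1 window was rich in CG, with 76.3% G and C and 47 CG pairs, and that of Gas1 had 62.3% and 17, where the median of all windows was 52.7% and 7. A match in letters is a description and does not show a binding site, and its absence says nothing about sites elsewhere.

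In reads per kb of exon, which allows levels to be set beside each other between genes, the order of the members differed between the genotypes at P16. In control DP, Gas1 led with 4367 ± 389 reads per kb (SD, n = 3), followed by Boc (1018 ± 52.1), Hhip (1014 ± 526), Smo (572 ± 8.98), Cdon (452 ± 46.9), Ptch1 (336 ± 83.2), Gli2 (272 ± 40.2), Gli3 (199 ± 10.2) and Gli1 (184 ± 45.3). In dMF1/2 DP, Hhip led with 2333 ± 753 reads per kb, followed by Gas1 (1913 ± 544), Ptch1 (881 ± 266), Boc (703 ± 121), Smo (679 ± 31.0), Cdon (432 ± 24.8), Gli1 (383 ± 123), Gli2 (350 ± 32.7) and Gli3 (269 ± 48.0). Ptch1 thus stood below Boc, Smo and Cdon in control DP and above their means in dMF1/2 DP. Neighbours in these orders such as Boc and Hhip in control DP, or Gli1 and Gli2 in dMF1/2 DP, differed by less than the larger of their SDs.

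Ratios of members within a library do not depend on the scaling, and the 3 given here were chosen after their values were seen, so that they carry no test. The ratio of Ptch1 to Gas1 in reads per kb was 0.261, 0.249 and 0.0921 in the control libraries of P14 and 0.0517, 0.0893 and 0.0933 in those of P16. It was 0.799, 0.362 and 0.501 in the dMF1/2 libraries of P14 and 0.274, 0.439 and 0.806 in those of P16. The highest control value, 0.261, lay just below the lowest dMF1/2 value, 0.274. The ratio of Gli1 to Gli2 lay between 0.585 and 0.802 in the control libraries and between 0.920 and 1.37 in the dMF1/2 libraries over both days. For Gli1 over Gli3 the ranges met, from 0.771 to 1.28 in control and from 1.17 to 1.82 in dMF1/2 libraries.

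**Figure D3:**
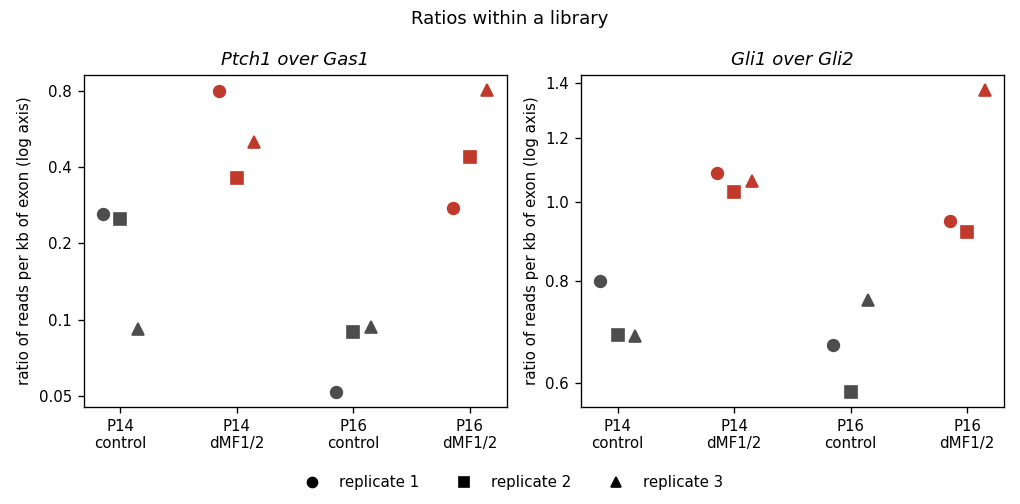
Ratio of Ptch1 to Gas1 and of Gli1 to Gli2 in reads per kb of exon in each library, on a log axis, with a symbol for each replicate number. Control libraries lie at 0.261 or below for Ptch1 over Gas1 and at 0.802 or below for Gli1 over Gli2, under all dMF1/2 libraries.

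Between P14 and P16, the reads of all 12 libraries were put on a common scale and fitted together. In control DP, Boc rose and Smo fell, 2 of 9 members at an adjusted p under 0.05 (limma), where 14.5% of 13424 genes were called (6.26% higher and 8.28% lower at P16). The groups of the 2 days did not overlap in 4 of 9 members (Boc above, and Smo, Hhip and Gli3 below), against 36.0% of all genes. On the common scale, Boc went from 3011, 2494 and 3636 normalized reads in the P14 controls to 4758, 4377 and 4346 in the P16 controls, a log2 fold change of 0.58 with a standard error of 0.14 (limma, adjusted p = 0.0225). Smo went from 4294, 3764 and 3723 to 3240, 3180 and 3146, a log2 fold change of -0.30 with a standard error of 0.08 (limma, adjusted p = 0.0294). Both calls were lost when the 6 control libraries were fitted alone (limma, adjusted p = 0.0568 for Boc and 0.0837 for Smo). Leaving out a control library also ended both calls in 4 cases, with adjusted p for Boc and Smo in limma of 0.0642 and 0.103 (P14 replicate 1), 0.0728 and 0.0526 (P14 replicate 2), 0.0807 and 0.0771 (P16 replicate 1), and 0.0545 and 0.0811 (P16 replicate 3). Leaving out P16 control replicate 2 ended that of Smo (limma, adjusted p = 0.0600). Without P14 control replicate 3, limma called 5 of 9 (Boc and Gas1 higher, and Ptch1, Gli2 and Smo lower), and 14.5% of all genes in that fit.

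Other signals moved between the days as well. Mitochondrial genes took 0.928% to 1.59% of the reads in the P14 libraries and 0.623% to 0.854% in the P16 libraries, with no overlap. In control DP, 4 of 10 dissociation stress genes rose (Atf3, Dnajb1, Hspa1a and Hspa1b, with log2 fold changes of 1.05, 0.97, 1.73 and 1.77), and their list summed to between 210983 and 341940 normalized reads at P14 and between 325706 and 463465 at P16. Of all genes, 6.26% rose and 8.28% fell between the days in control DP. Of the markers of other cells, the melanocyte genes Kit and Mitf rose (2 of 4 tested), the endothelial genes Emcn and Vwf rose and Tek fell (3 of 7), Msx2 fell among 10 keratinocyte markers and Plin1 among 2 adipocyte markers. In dMF1/2 DP limma called 0 genes of these lists between the days, against 5.75% of all genes. But Hspa1a, Hspa1b and Tek had log2 fold changes near those of control (1.74, 1.93 and -0.89). They were called with the replicate block (limma, adjusted p = 0.0394, 0.0427 and 0.0416), against 5.53% of all genes. The skeletal muscle gene Mylpf had a log2 fold change of -2.86 in dMF1/2 DP (limma, adjusted p = 0.05003, and 0.0400 with the block) and -1.42 in control DP. The block also called Pecam1, an endothelial gene, higher at P16 in control DP (limma, adjusted p = 0.0432). The part of these signals in the members' day changes was not tested.

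Ptch1, Gli1 and Hhip had lower means in control DP at P16 than at P14 but did not pass the test. Ptch1 went from 8025 ± 2470 to 4733 ± 1175 (SD, n = 3) on the common scale, a log2 fold change of -0.74 (limma, adjusted p = 0.0966). The P14 and P16 controls overlapped, since P14 control replicate 3 had 5282 and P16 control replicate 3 had 5768. DESeq2 gave an adjusted p of 0.0410 for this change. The log2 fold change of Gli1 was -0.55 (limma, adjusted p = 0.156), or -0.35 without P14 control replicate 1, that of Hhip -0.89 (0.161, and -0.32 without P16 control replicate 1), that of Gli2 -0.44 (0.0812) and that of Gas1 0.52 (0.133).

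In dMF1/2 DP, limma called 0 of 9 members between P14 and P16, where 5.75% of all genes were called. At an unadjusted p under 0.05 there were 2 of 9 (Boc higher and Smo lower at P16), against 22.8% of all genes, and DESeq2 and edgeR called 0. Ptch1 had 12728 ± 2725 normalized reads at P14 and 12340 ± 3735 at P16 on the common scale (SD, n = 3), a log2 fold change of -0.06 with a 95% interval from -0.68 to 0.55. The interval for Gli1 ran from -0.67 to 0.44, for Hhip from -0.77 to 1.03 and for Gas1 from -0.36 to 0.62. Boc had a log2 fold change of 0.34 and Smo of -0.19 in dMF1/2 DP, in the same directions as in control DP (limma, adjusted p = 0.182 and 0.165).

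**Figure D4:**
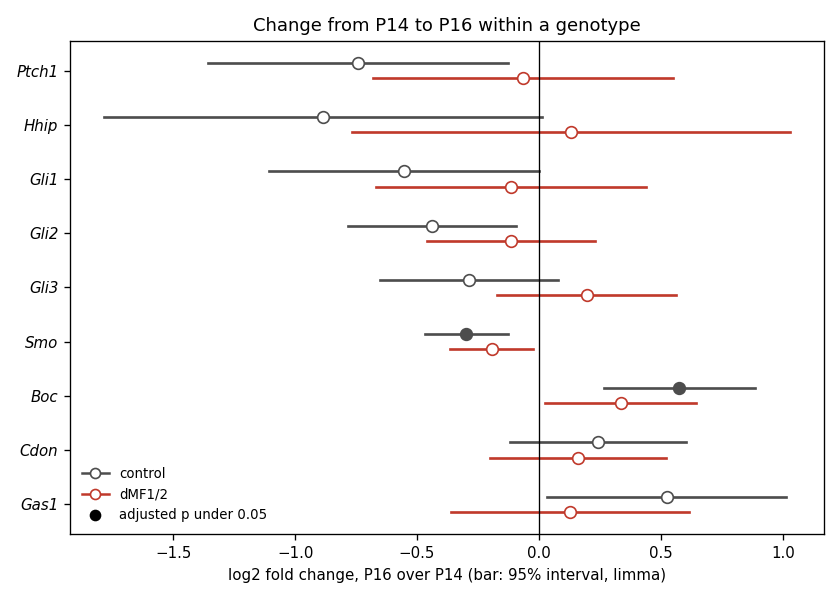
The log2 fold change from P14 to P16 for each member in control and in dMF1/2 DP, with 95% intervals from limma and filled points for an adjusted p under 0.05. Boc (0.58) and Smo (-0.30) in control are the filled points, and the intervals of the 2 genotypes overlap for every member.

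Whether the genotype difference changed between the days was tested as an interaction. Limma called 0 of 9 members and 0.0% of all genes, with 0 members against 4.83% of all genes at an unadjusted p under 0.05, and DESeq2 and edgeR also called 0 members. The genotype difference was larger at P16 by 0.68 on the log2 scale for Ptch1 (95% interval from -0.19 to 1.55) and by 1.02 for Hhip (from -0.25 to 2.29), or by 0.44 without P16 dMF1/2 replicate 3 for Ptch1 and 0.45 without P16 control replicate 1 for Hhip. For Gas1 the difference in log2 fold change was -0.40 (from -1.09 to 0.30) and for Gli1 0.44 (from -0.34 to 1.22). With 1 library dropped these ranged from -0.61 (without P16 dMF1/2 replicate 1) to -0.22 (without P16 dMF1/2 replicate 3) for Gas1 and from 0.19 (without P16 dMF1/2 replicate 3) to 0.64 (without P16 control replicate 3) for Gli1. Calls at P16 that were missing at P14 are therefore not shown to be particular to P16.

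The order of the 4 groups was the same for the means of Ptch1 and Gli1, with P14 dMF1/2 highest, then P16 dMF1/2, P14 control and P16 control. For Ptch1 on the common scale the neighbours in this order overlapped, with P16 dMF1/2 from 9651 to 16604, P14 control from 5282 to 10073 and P16 control from 3456 to 5768. Gas1 ran from P16 control (12829 ± 1158) over P14 control (9112 ± 2500) and P16 dMF1/2 (5589 ± 1574) to P14 dMF1/2 (5049 ± 987). Its P14 control libraries, from 7309 to 11965, met the P16 dMF1/2 libraries, from 4302 to 7344.

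Other genes of the pathway were counted from lists written with earlier results of these data known. Among ligands and proteins that release them, 5 of 9 could be tested. Scube3 and Scube1, secreted proteins that help lipid-modified Hedgehog leave cells, were called higher in dMF1/2 DP at P16, against 2.18% of all genes. Shh and Ihh were not analysed here. Scube3 had 2604, 4235 and 3879 normalized reads in P16 control and 24359, 22944 and 30503 in P16 dMF1/2 libraries, a log2 fold change of 2.88 with a standard error of 0.19 (limma, adjusted p = 0.00154). Scube1 had 847, 549 and 735 in control and 2124, 2840 and 4185 in dMF1/2 libraries, a log2 fold change of 2.07 with a standard error of 0.25 (limma, adjusted p = 0.00615). Neither gene overlapped between genotypes on either day, as was true of 24.5% of all genes at P16 and 12.7% at P14. At P14 the log2 fold changes were 1.04 for Scube3 and 1.97 for Scube1 (limma, adjusted p = 0.554 and 0.187, with the replicate block 0.0358 and 0.00592). In control DP, Scube3 fell by 2.44 and Scube1 fell by 1.61 on the log2 scale from P14 to P16 (limma, adjusted p = 0.00128 and 0.0127). Scube1 also fell in dMF1/2 DP, by a log2 fold change of -1.52 (limma, adjusted p = 0.0268), where Scube3 had -0.61 (0.277). Of all genes, 14.5% were called between the days in control DP and 5.75% in dMF1/2 DP. The call of Scube1 in dMF1/2 DP was lost without any 1 of the P14 dMF1/2 libraries and without P16 dMF1/2 replicate 1 or 2 (limma, adjusted p from 0.0515 to 0.121). The interaction for Scube3 was 1.83, with a 95% interval whose lower end was 0.85, and it was not called (limma, adjusted p = 0.99998, and 0.0968 with the replicate block).

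Of 26 other receptors and transducers tested, 1 was called at P16, where 4.32% of all genes were, and 0 at P14. Adrbk2, which encodes a G protein-coupled receptor kinase, had 446, 809 and 888 normalized reads in P16 control and 1533, 1341 and 2034 in P16 dMF1/2 libraries, a log2 fold change of 1.23 (limma, adjusted p = 0.0410). This call was lost without P16 control replicate 3 or any 1 of the dMF1/2 libraries (limma, adjusted p from 0.0624 to 0.138). With the replicate block, 4 were called at P16 (Adrbk2, Prkar1a and Sufu higher, and Gnas lower), against 10.4% of all genes. Sufu, which restrains the Gli proteins, had a log2 fold change of 0.37 (limma, adjusted p = 0.0751, and 0.0331 with the block). Kif7, a ciliary kinesin that acts on the Gli proteins, had a log2 fold change of 0.33 at P16 (limma, adjusted p = 0.236). From P14 to P16, 3 of these 26 fell and 1 rose in control DP, against 8.28% and 6.26% of all genes. In dMF1/2 DP 2 fell and 0 rose, where 5.75% of all genes were called. Kif7 fell from P14 to P16 in both genotypes, with log2 fold changes of -0.79 in control and -0.55 in dMF1/2 DP (limma, adjusted p = 0.00444 and 0.0340). In control DP, Prkaca and Prkar1a, subunits of protein kinase A, also fell by 0.34 and 0.35 on the log2 scale, and Arrb1, a beta-arrestin, rose by 0.49 (limma, adjusted p = 0.0260, 0.0361 and 0.0182). Evc2, a ciliary partner of Smo, fell in dMF1/2 DP with a log2 fold change of -0.30 (limma, adjusted p = 0.0354). Fitted on the 6 libraries of their genotype alone, Prkaca, Prkar1a, Evc2 and Kif7 in dMF1/2 DP were not called (limma, adjusted p = 0.0807, 0.0718, 0.0921 and 0.0709). Single libraries also ended these calls. For Prkaca they were P14 control replicates 1 and 2 and P16 control replicates 1 and 3 (limma, adjusted p from 0.0681 to 0.0949), and for Prkar1a the same and P14 dMF1/2 replicate 3 (0.0526 to 0.121). For Arrb1 they were replicate 1 of either control day (0.0669 and 0.0704), for Evc2 each dMF1/2 library and P16 control replicate 3 (0.0520 to 0.129), and for Kif7 in dMF1/2 DP each of its libraries but P16 replicate 3 (0.0664 to 0.140). The call of Kif7 in control DP held under each alternative run.

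Of 16 other genes known as Hedgehog targets in some tissue, limma called 0 at either day between genotypes, with 6 at an unadjusted p under 0.05 at P16, against 19.0% of all genes, and 5 at P14, against 7.32%. Their median log2 fold change at P16 was -0.26, where that of the 9 members was 0.37 and that of all genes -0.00. With the replicate block 5 passed at P16 (Sox18 higher, and Bcl2, Foxf2, Prdm1 and Sox9 lower) and 3 at P14 (Bcl2, Jag2 and Prdm1, all lower), against 10.4% and 1.68% of all genes. Bcl2, an inhibitor of cell death, had log2 fold changes of -0.98 at P16 and -0.85 at P14 (with the block, limma's adjusted p = 0.00350 and 0.0175, and without it 0.0641 and 0.255). From P14 to P16 in control DP, Bcl2 rose by 0.92, and Sox18 and Igfbp6 fell by 1.06 and 0.59 on the log2 scale (limma, adjusted p = 0.0269, 0.0383 and 0.0433), and Igfbp6 fell in dMF1/2 DP with a log2 fold change of -0.72 (0.0366). These were 1 of 16 higher and 2 lower in control DP, against 6.26% and 8.28% of all genes. In dMF1/2 DP 1 of 16 was called, against 5.75% of all genes. With the block, the calls of Igfbp6 were lost (limma, adjusted p = 0.0670 in control and 0.0586 in dMF1/2), as they were with the 6 libraries alone (0.0819 and 0.0542). Igfbp6 in control DP was also lost without any 1 library but P14 control replicate 2 and P14 dMF1/2 replicates 1 and 2 (0.0508 to 0.152), and in dMF1/2 DP without P14 dMF1/2 replicate 2 or 3, P16 control replicate 2 or any P16 dMF1/2 library (0.0507 to 0.139). Sox18, whose P14 and P16 controls overlapped, was not called with the 6 libraries alone (limma, adjusted p = 0.0884), nor without P14 control replicate 1 or 2, P16 control replicate 1 or 2, P14 dMF1/2 replicate 3 or P16 dMF1/2 replicate 1 (0.0524 to 0.141). Bcl2 was lost without P14 control replicate 1 or 2 or P16 control replicate 1 or 3 (limma, adjusted p from 0.0832 to 0.0899).

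Of 48 genes of primary cilium assembly and transport tested, limma called 0 between genotypes on either day, with 12 at an unadjusted p under 0.05 at P16 (19.0% of all genes) and 4 at P14 (7.32%), and with the block 2 passed at P16 (Cc2d2a and Kifap3, both higher), against 10.4% of all genes. From P14 to P16 in control DP, 3 of 48 fell and 1 rose, against 8.28% and 6.26% of all genes. Arl3, a small GTPase of the cilium, fell by 2.04, Ift43 by 0.80 and Ift27 by 0.73 on the log2 scale, and Ttbk2, a kinase that starts cilium assembly, rose by 0.45 (limma, adjusted p = 3.04e-04, 0.0152, 0.0186 and 0.0138). Arl3 and Ift43 also fell in dMF1/2 DP, with log2 fold changes of -2.01 and -0.91 (limma, adjusted p = 2.95e-04 and 0.0143). They were 2 of 48 called there, against 5.75% of all genes. With the 6 control libraries fitted alone, Ift43, Ift27 and Ttbk2 were not called (limma, adjusted p = 0.0534, 0.0655 and 0.0652), while Arl3 was. Ift27 was also lost without P14 control replicate 1 or P16 control replicate 1 or 3 (0.0501 to 0.0756), Ttbk2 without P16 control replicate 1 (0.0534), and Ift43 in dMF1/2 DP without P14 dMF1/2 replicate 2 or 3 or P16 dMF1/2 replicate 1 or 3 (limma, adjusted p from 0.0531 to 0.0631).

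**Figure D5:**
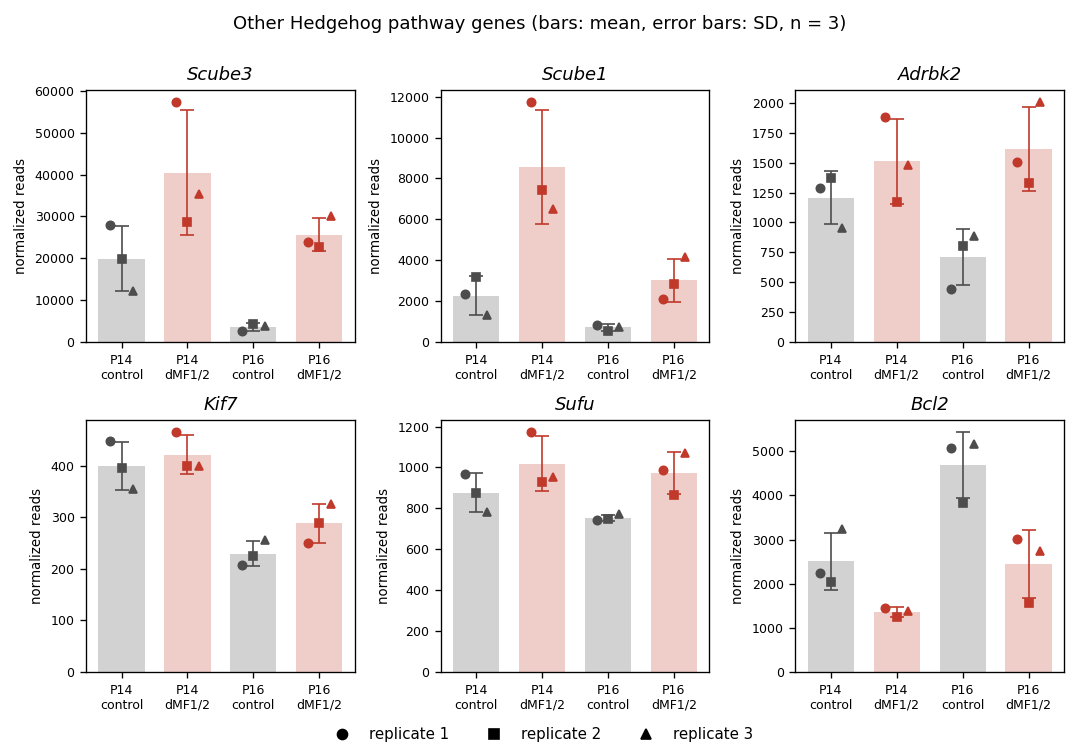
Normalized reads of Scube3, Scube1, Adrbk2, Kif7, Sufu and Bcl2 in each library on the scale common to the 12 libraries, with bars for group means and error bars for the SD (n = 3). Scube3 lies at 22710 or above in the P16 dMF1/2 libraries and at 4192 or below in the P16 controls, and Bcl2 lies at 3014 or below in the former and at 3836 or above in the latter.

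DP markers also differed between the genotypes at P16. Of the 15 DP markers, 5 were called higher (Rspo3, Alpl, Nog, Prom1 and Fgf10) and 1 lower (Crabp1) in dMF1/2 DP at P16. Of all genes, 2.18% were called higher and 2.14% lower. The markers had a median log2 fold change of 0.96. With the block 11 of them were higher and 1 lower, against 10.4% of all genes called. The summed reads of the markers on the common scale were 58977 to 107664 in P16 control and 119595 to 165743 in P16 dMF1/2 libraries. Their part in the members' results was not tested, and in these bulk samples fewer DP cells and less RNA of a gene per cell cannot be told apart. At P14 the sums overlapped, at 131926 to 194638 in control and 113666 to 194502 in dMF1/2 libraries, and the median log2 fold change of the markers was 0.09. With the block 1 marker was higher and 2 were lower there, against 1.68% of all genes called. Without it 0 were called, against 0.0525%. From P14 to P16 in control DP, 8 of 15 DP markers fell and 0 rose, against 8.28% and 6.26% of all genes. With the block 10 fell, where 14.3% of all genes were called. Without P16 control replicate 1, which had the lowest DP marker sum, Ptch1 and Gas1 were called at P16, with log2 fold changes of 1.17 and -1.16 (limma, adjusted p = 0.0337 and 0.0291). The DP marker sums of the other P16 controls, 97395 and 107664, also lay below those of all P16 dMF1/2 libraries. Dermal fibroblast markers had no call in 10 tested at P16 (with the block Mfap5 was higher and Dpt lower) and a median log2 fold change of 0.04, and their sums overlapped between genotypes (221002 to 289006 in control and 193553 to 286120 in dMF1/2). Dermal sheath markers also had no call in 10 tested (with the block Lmod1 was lower at P16 and Itga8 at P14), and their sums at P16 were 23266 to 48144 in control and 21858 to 37728 in dMF1/2. Keratinocyte markers had no call in 9 tested at P16 and a median log2 fold change of 0.57, and summed to 411, 461 and 964 in control, from lowest to highest, and to between 745 and 898 in dMF1/2 libraries. The 7 endothelial markers summed to 696, 1455 and 1575 in P16 control libraries, from lowest to highest, and to between 822 and 1170 in P16 dMF1/2 libraries. Limma called 0 endothelial or melanocyte markers between genotypes at P16, and with the block Pecam1 and Kit were lower. Of 2 adipocyte markers tested, Plin1 was higher in dMF1/2 DP at P16 (log2 fold change 2.43, limma's adjusted p = 0.00604), and with the block Fabp4 was lower. The 10 dissociation stress genes summed to 325706 to 463465 in P16 control and 292195 to 314948 in P16 dMF1/2 libraries, which did not overlap. Of these genes Atf3 was lower in dMF1/2 DP at P16 (log2 fold change -0.65, limma's adjusted p = 0.0224), and with the block Ier2 and Jun were lower too. The part of these cells and signals in the members' results was not tested.

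The genes whose pattern over the 12 libraries was nearest to a member were found as those with the smallest root mean square difference in centred log2 reads, among 10248 genes with a mean of at least 100. For Ptch1 they were Adgrl3 (0.160), 3632451O06Rik (0.185), Eya2 (0.208), Gli1 (0.209) and Gpr176 (0.210), where the spread of Ptch1 itself was 0.667. For Gli1 they were Fam19a5 (0.166), Mex3c (0.191), Daam2 (0.198), Ksr1 (0.200) and Igsf3 (0.202), with a spread of Gli1 itself of 0.541 and with Ptch1 at rank 7. Hhip was at rank 63 from Ptch1, while Gas1 was at rank 10096 and Boc at rank 9639, near the far end. The 12 libraries share their genotype and day groups, so these distances describe the pattern and carry no test.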

How the data were processed

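RNA of YFP-positive cells, sorted by FACS in 2 rounds from dissociated skin, was depleted of ribosomal RNA and sequenced from strand-specific libraries. Per the labels and methods, the authors used Trimmomatic to trim, TopHat2 to map to mm10, HTSeq to count per Ensembl gene (GRCm38.p4) and DESeq2 to normalize. The deposited signal values are reads divided by a size factor set over the 6 libraries of a day, in 1 table per day, and 100% of them were whole multiples of 1 read within 0.01, so that whole reads were recovered. The tables also hold log2 fold changes, which the authors made with DESeq2 for dMF1/2 over control, with a score for their standard error and Wald test. They hold p-values that the authors computed in that test. None of these columns was used. Both tables were made for protein-coding genes.

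Members and lists were chosen with earlier results of these data known. Named were all 9 members in every library, each called gene of the 4 pathway lists, Sufu, Kif7, Fgfr1 and Fgfr2, and the 5 genes nearest to Gli1 and to Ptch1. Marker genes and genes named for a call with the replicate block alone were chosen after their values were seen. A further gene of the lists is not reported here. Genotypes were compared within a day on the log2 of the deposited value plus 1 with limma 3.58.1 in R 4.3.3 (empirical Bayes with a mean-variance trend), keeping genes whose mean value was 10 or more, adjusting by Benjamini-Hochberg over all genes tested, with a threshold of 0.05. For the days and the interaction, reads of 14986 shared genes were rescaled by median of ratios over 12 libraries and fitted in 1 model of 4 groups. A fold change is on the log2(value + 1) scale. Exon lengths came from GENCODE M21 and start sequences from RefSeq.

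Deviations from group means of libraries with the same number correlated, across genes, at 0.586, 0.389 and 0.304 at P14 and 0.256, 0.293 and 0.311 at P16. The labels do not say what a number marks, and the pairing rests on these values. The number was then fitted as a block, and its value is given for members whose call it changed, with values, names or counts for the other lists described. In the day comparisons it was a random block. Alternatives were edgeR 4.0.16 and DESeq2 1.42.0 on recovered reads, other pseudocounts, filters and scalings, other sets of libraries, and each library left out in turn. Fits without both P14 libraries numbered 1 were added after seeing the data. Depth of 19302358 to 29860750 reads per library left no member under 764 normalized reads in any library. The scripts were tested on simulated data.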

Additional observations from a re-analysis of the deposited data

How the results depend on the processing

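The number of members called depended on the processing. At P14 it was 0, and it was 1 with DESeq2 (Gas1, with 1.55% of all genes called) and 1 with the replicate block (Gli1, with 1.68%). At P16 it was 2, and it rose to 4 with DESeq2 or upper quartile scaling (Gli1 and Boc added, with 8.51% and 4.63% of all genes called) and to 5 with the replicate block (Hhip added too, with 10.4%), while dropping any single library gave 1 to 3, with 1.11% to 5.08% of all genes called. Between P14 and P16 in control it was 2, with 14.5% of all genes, and it was 3 with DESeq2 (Ptch1 added, with 19.6%) and 0 when the 6 libraries were fitted alone (6.01%) or without both P14 libraries numbered 1 (7.08%), and dropping any single library gave 0 to 5, with 5.17% to 15.8% of all genes called. In dMF1/2 DP and for the interaction it was 0 under every alternative run. The replicate block changed no other call of a member. The cause of these shifts was not tested.

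Changes of sign were seen in members that were not called. Without both P14 libraries numbered 1, the log2 change from P14 to P16 in dMF1/2 DP was 0.10 for Ptch1, 0.033 for Gli1, 0.012 for Gli2, -0.028 for Cdon and -0.0088 for Gas1. With any single library dropped, that change ranged between -0.30 and 0.10 for Ptch1, -0.36 and 0.062 for Gli1, -0.23 and 0.012 for Gli2, -0.12 and 0.35 for Hhip, -0.028 and 0.29 for Cdon, and -0.087 and 0.30 for Gas1. The genotype difference at P14 lay between -0.081 and 0.18 for Gli2, -0.22 and 0.10 for Gli3, and -0.11 and 0.21 for Cdon, and the interaction for Cdon between -0.27 and 0.050. Differences of this size could not be resolved with 3 libraries a group.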
